A study of Mus musculus with 6 samples.

Results

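The genes described here encode the glutathione and oxidative stress defence of the cell, 48 genes chosen by name for their function in this pathway. Of these, 45 were measured by probe sets that the array's annotation assigns to exactly 1 gene, out of 18193 genes measured in all. Prdx1 and Ftl1 had only probe sets shared with other loci, and G6pdx was not analysed here. For each gene the probe set with the highest mean over all arrays was used. The arrays compared tumour cells of E-FABP deficient (EKO) mice, which lack the epidermal fatty acid binding protein encoded by Fabp5, with those of wild type (WT) mice, 3 biological replicates per genotype. Both genotypes had received the carcinogen DMBA and the tumour promoter TPA over 5 months, and no untreated skin is analysed here. By the design text, each WT value also comes from a chemically induced skin tumour. The labels call the cells keratinocytes, whereas the design text calls them cells of digested tumours. Below, the samples are called EKO or WT tumours after the design text, though the labels name mice. The sources used here give no strain, sex or age. The labels do not say which part of Fabp5 is disrupted or in which cells.

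Glutathione is a small thiol made from glutamate, cysteine and glycine, and it is the main soluble reductant of most cells. Peroxidases use it to reduce hydrogen peroxide and lipid peroxides, transferases couple it to reactive electrophiles, and glutathione reductase returns the oxidised form with electrons from NADPH. Many of these genes are controlled by the transcription factor NRF2, encoded by Nfe2l2, which its partner KEAP1 marks for degradation until oxidants or electrophiles modify KEAP1. In skin the pathway deals with products of oxidised lipids and with metabolites of carcinogens such as DMBA.

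All values are log2 values from RMA, and every difference is EKO minus WT. The 6 arrays had medians of 5.41 to 5.43 and correlated pairwise with r between 0.988 and 0.994. The check of the genotype held, with Fabp5 at 8.21, 8.30 and 7.98 in EKO tumours, against 14.82, 14.94 and 14.80 in WT tumours. Fabp5 fell by 6.69 (limma adjusted p = 1.04e-06) and was the 1 gene of all genes tested that passed an adjusted p of 0.05, a share of 0.0055%. The 5 listed keratinocyte markers averaged 13.44 to 13.74 per array in EKO and 13.49 to 13.65 in WT tumours, and none of the markers of 8 cell types was under the lower quartile of all 6 arrays. The 5 skeletal muscle markers all had lower EKO means and averaged 6.27 to 7.60 in EKO and 6.14 to 9.83 in WT arrays. The 3 of 4 erythroid markers that were measured all had higher EKO means and averaged 5.39 to 5.71 in EKO and 4.77 to 5.52 in WT arrays. Of these, Hba-a1 at 3.87 to 4.09 lay near the lower quartiles of the arrays, 3.90 to 3.97. The fibroblast list averaged 11.26 to 11.91 in EKO and 11.25 to 12.13 in WT arrays, the leukocyte list 7.25 to 7.53 in EKO and 7.43 to 7.53 in WT arrays, and the endothelial list 6.52 to 6.67 in EKO and 6.42 to 6.99 in WT arrays. By EKO means, 1 fibroblast marker was higher and 4 lower, with Dcn at -0.90 the largest difference. Of the leukocyte markers 2 were higher and 3 lower, and of the endothelial markers 2 and 2. For adipocytes 2 of 4 markers were measured, averaging 6.31 to 7.17 in EKO and 6.02 to 7.99 in WT arrays, and for sebocytes 2 of 5, averaging 6.56 to 7.58 in EKO and 7.25 to 7.45 in WT arrays. The part of these other cell types in the differences below was not tested. In such cell mixtures, fewer cells of a type and less RNA per cell cannot be told apart.

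Across the 45 genes the EKO means were higher for 31 and lower for 14, and the median difference was 0.27 against 0.00014 over all genes. The largest differences belonged to the peroxidase Gpx2, the transferases Gsta4, Gsta3, Gsto1 and Gsta2, the quinone reductase Nqo1 and the glutathione synthesis gene Gclm, from 1.03 for Gclm to 2.22 for Gpx2. In all, 10 of 45 genes, 22.2%, had a difference of at least 0.8, as did 1.02% of all genes, and no member had one of -0.8 or lower. None of the 45 passed the test over all genes (limma adjusted p from 0.546 to 0.996). At an unadjusted p under 0.05, 15 members were higher and 2 lower, beside 3.44% of all genes higher and 3.7% lower. Every EKO value lay above every WT value for 10 members, beside 5.78% of all genes, and below for 2, Gstt1 and Gstt2, beside 6.19%. The members had been chosen with earlier results of these data known, so these counts describe them and do not test them.

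**Figure D1:**
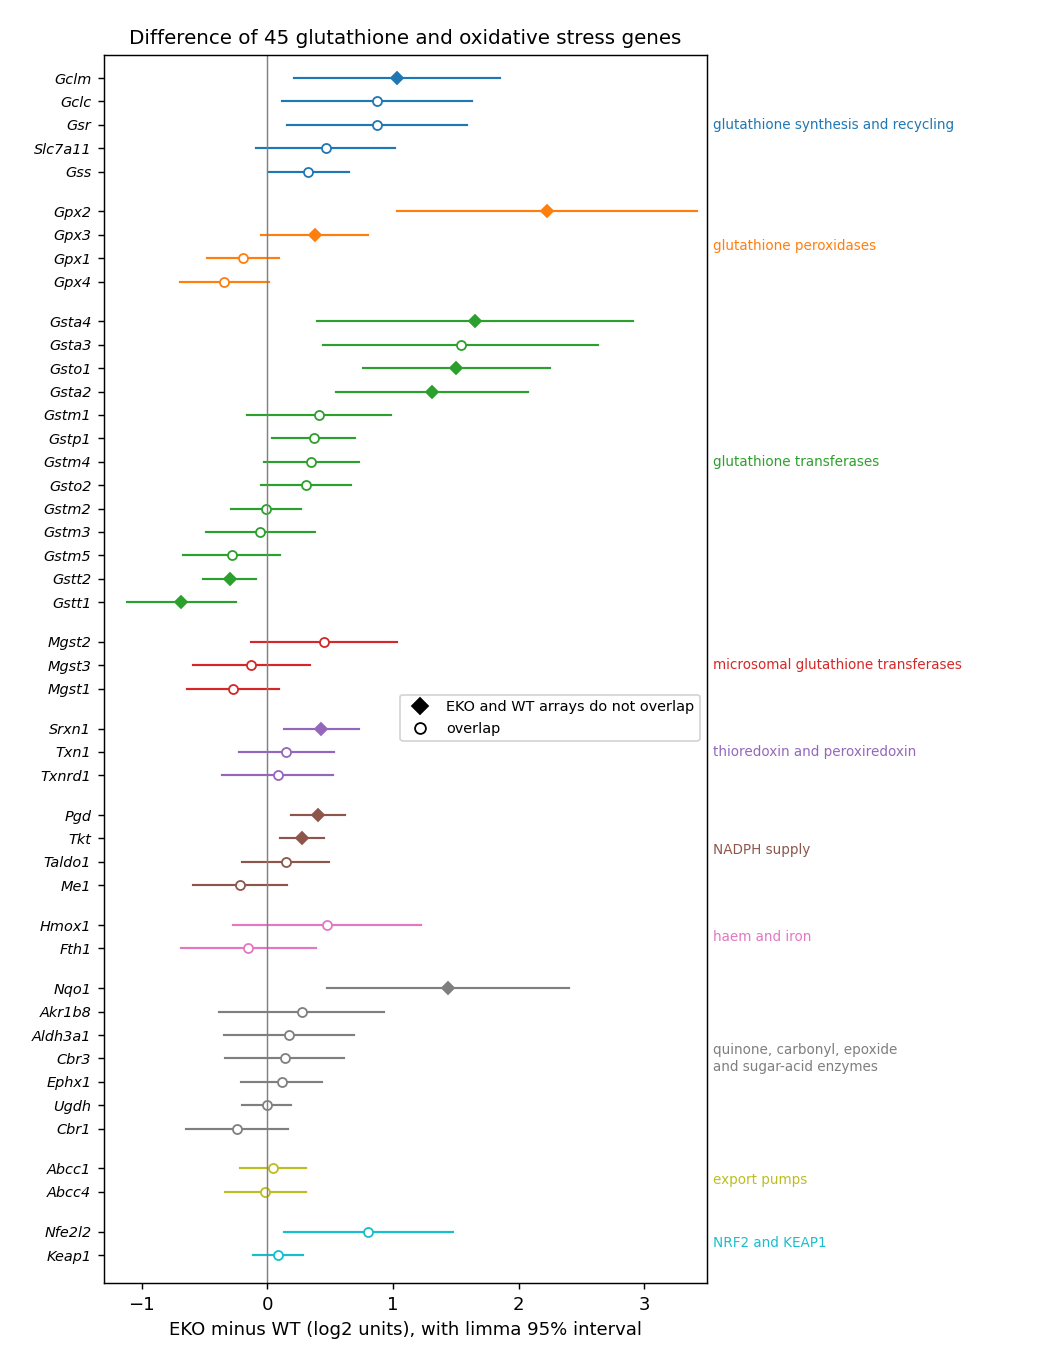
Difference of each of the 45 measured genes, EKO minus WT in log2 units on the horizontal axis, with its limma 95% interval as a line. Genes run down the page by class, filled diamonds mark genes whose EKO and WT arrays do not overlap, and Gpx2 at 2.22 and Gstt1 at -0.68 are the extremes.

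The regulators differed from each other. Nfe2l2, which encodes NRF2, read 11.36, 10.62 and 11.65 in EKO replicates 1, 2 and 3, against 10.63, 10.58 and 10.001 in WT replicates 1, 2 and 3. EKO replicates 1 and 3 were above all WT values, whereas EKO replicate 2 lay inside the WT range. The difference was 0.80 (95% interval 0.13 to 1.48, adjusted p = 0.65). Keap1, the gene of its inhibitor, read 8.77, 8.81 and 8.65 in EKO and 8.72, 8.61 and 8.66 in WT tumours. The groups overlapped, and the difference of 0.08 had an interval of -0.12 to 0.28. A dimmer probe set of Keap1 gave the opposite direction, with 6.02, 6.26 and 6.48 in EKO tumours all below 6.94, 6.49 and 6.77 in WT tumours, so the 2 probe sets of this gene disagree. Both probe sets of Nfe2l2 gave higher EKO means, with a difference of 0.43 for the dimmer.

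NRF2 binds antioxidant response elements, whose core is written here as TGACNNNGC. Windows around annotated gene starts, from 250 bases before to 50 after, were searched for it on both strands in RefSeq sequence of GRCm38.p6. Of the measured members 38 had such a window, some more than 1, and 12 of their 51 windows (23.5%) held the letters, as did 12.4% of all 32851 windows. Windows of a gene are not independent, since 10 members had several and Abcc4 gave 2 of the 12, so these shares are a description. The 11 genes with a match were Abcc4, Gclm, Gsta3, Gstm5, Me1, Mgst1, Nfe2l2, Pgd, Srxn1, Txnrd1 and Ugdh. The matches of Pgd and Srxn1 began 3 and 28 bases after an annotated start, and all others began before one. The differences of these 11 genes ran from -0.29 for Gstm5 to 1.54 for Gsta3, with 6 higher and 5 lower by their EKO means. No match was found in the windows of Gpx2, Nqo1, Gsto1 and Gsta2. Gsta4, Gclc and Gsr, which also had differences of at least 0.8, had no window and were not searched. A match is only a match of letters, and no match says nothing about sites elsewhere. The 250 bases before the start are shown for the gene with the largest difference, Gpx2 (chr12:76795555-76795804, minus strand), and for 3 genes with a match and a difference of at least 0.8, Gclm (chr3:122245307-122245556, plus strand), Gsta3 (chr1:21240335-21240584, plus strand) and Nfe2l2 (chr2:75704664-75704913, minus strand). Each is written in the direction of its gene with the match in capitals.
Gpx2: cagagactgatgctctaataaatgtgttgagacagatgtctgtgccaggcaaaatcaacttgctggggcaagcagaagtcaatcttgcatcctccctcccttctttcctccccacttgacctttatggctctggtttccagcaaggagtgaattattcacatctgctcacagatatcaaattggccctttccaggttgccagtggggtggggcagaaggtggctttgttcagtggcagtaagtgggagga
Gclm: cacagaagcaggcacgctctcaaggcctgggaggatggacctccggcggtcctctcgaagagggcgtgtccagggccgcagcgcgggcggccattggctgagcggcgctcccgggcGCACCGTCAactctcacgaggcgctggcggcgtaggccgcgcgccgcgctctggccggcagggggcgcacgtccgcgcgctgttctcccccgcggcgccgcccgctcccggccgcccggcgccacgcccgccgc
Gsta3: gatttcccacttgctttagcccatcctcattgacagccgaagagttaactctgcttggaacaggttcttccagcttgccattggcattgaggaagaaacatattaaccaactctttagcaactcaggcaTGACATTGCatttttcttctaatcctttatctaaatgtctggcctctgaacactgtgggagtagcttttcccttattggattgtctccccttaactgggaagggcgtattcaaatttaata
Nfe2l2: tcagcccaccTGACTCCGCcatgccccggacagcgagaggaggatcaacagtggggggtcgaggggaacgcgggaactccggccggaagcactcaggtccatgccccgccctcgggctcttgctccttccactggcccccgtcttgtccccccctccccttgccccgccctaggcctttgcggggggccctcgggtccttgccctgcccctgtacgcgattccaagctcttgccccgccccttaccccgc

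In these sequences the Gclm match lay on the opposite strand, beginning 134 bases before the start, and those of Gsta3 and Nfe2l2 lay on the gene's strand, 121 and 240 bases before it. Matches also stood near the starts of genes that differed little or were lower by their means, of which 3 are shown here with 16 bases on each side. The match of Me1, TGACTCAGC, overlapped TGACTCA, the binding sequence of AP-1 factors, and it alone of the matches overlapped that sequence or its reverse complement TGAGTCA.
Gstm5: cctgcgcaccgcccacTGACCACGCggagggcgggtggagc
Mgst1: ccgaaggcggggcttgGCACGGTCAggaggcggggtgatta
Txnrd1: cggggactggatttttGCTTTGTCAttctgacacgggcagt

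The Me1 match (chr9:86695912-86695920) began 6 bases before the start, that of Gstm5 (chr3:107895812-107895820) 42, that of Mgst1 (chr6:138140471-138140479) 56 and that of Txnrd1 (chr10:82859114-82859122) 92. The log2 differences of these 4 genes were -0.21, -0.29, -0.27 and 0.08. Among the measured members, the letters therefore stood beside genes of either direction.

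All 5 genes of glutathione synthesis and recycling had higher EKO means, with a median difference of 0.87. Gclm, the modifier subunit of the rate-limiting glutamate-cysteine ligase, read 10.67, 9.54 and 11.01 in EKO tumours, against 9.38, 9.23 and 9.52 in WT tumours. The groups did not overlap, but EKO replicate 2 stood only just above the highest WT value, and the difference was 1.03 (SE 0.348, adjusted p = 0.63). Gclc, the catalytic subunit of the same enzyme, read 9.89, 9.21 and 9.79 in EKO and 8.42, 8.38 and 9.47 in WT tumours. WT replicate 3 was above EKO replicate 2, so the groups overlapped, and the difference was 0.87 (SE 0.319, adjusted p = 0.655). Gsr, glutathione reductase, had the same overlap, with 9.15, 8.10 and 8.97 in EKO against 7.68, 7.61 and 8.32 in WT tumours, and a difference of 0.87 (SE 0.304, adjusted p = 0.646).

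Without EKO replicate 2, where 38 genes were higher and 4 lower past the threshold, Gclm was the 1 member that passed (difference 1.46, 95% interval 1.11 to 1.82, limma adjusted p = 0.03, range over the alternatives 0.03 to 0.998). Its dimmer probe set gave a difference of 0.80, with the groups just overlapping. Slc7a11, the subunit of the cystine importer that supplies cysteine, read 7.24, 7.02 and 7.82 in EKO and 7.12, 7.02 and 6.55 in WT tumours. Only EKO replicates 1 and 3 exceeded the highest WT value, and the difference of 0.46 had an interval of -0.09 to 1.02, with 0.234 left without EKO replicate 3 and 0.29 without WT replicate 3. Gss, glutathione synthetase, which completes the molecule, had EKO values of 7.61, 7.36 and 7.81 and WT values of 7.24, 7.14 and 7.43. Its groups overlapped by EKO replicate 2 alone, and the difference was 0.32 (95% interval 0.0014 to 0.65).

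Of the 4 glutathione peroxidases, 2 had higher and 2 lower EKO means. Gpx2, a form expressed in epithelia, read 11.05, 9.88 and 12.01 in EKO tumours, against 8.83, 8.27 and 9.16 in WT tumours. Every EKO tumour was above every WT tumour, with more than 2 log2 units between the lowest and highest EKO values. The difference was 2.22 (95% interval 1.03 to 3.42, adjusted p = 0.572), a 4.67-fold ratio of the geometric means. Gpx3, the secreted form, read 8.59, 8.03 and 8.01 in EKO and 7.97, 7.62 and 7.90 in WT tumours, without overlap (difference 0.38, interval -0.05 to 0.80). Without EKO replicate 1 the difference of Gpx3 was 0.185. The abundant cytosolic form Gpx1 differed by -0.20, at 12.97 ± 0.101 in EKO and 13.17 ± 0.198 in WT tumours (mean ± SD, n = 3 each). Gpx4, which reduces lipid hydroperoxides within membranes, differed by -0.34, at 11.51 ± 0.231 in EKO and 11.85 ± 0.195 in WT tumours, and its 2 probe sets had the same direction. For Gpx1 and Gpx4 the groups overlapped and the intervals, -0.48 to 0.09 and -0.70 to 0.01, included 0.

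**Figure D2:**
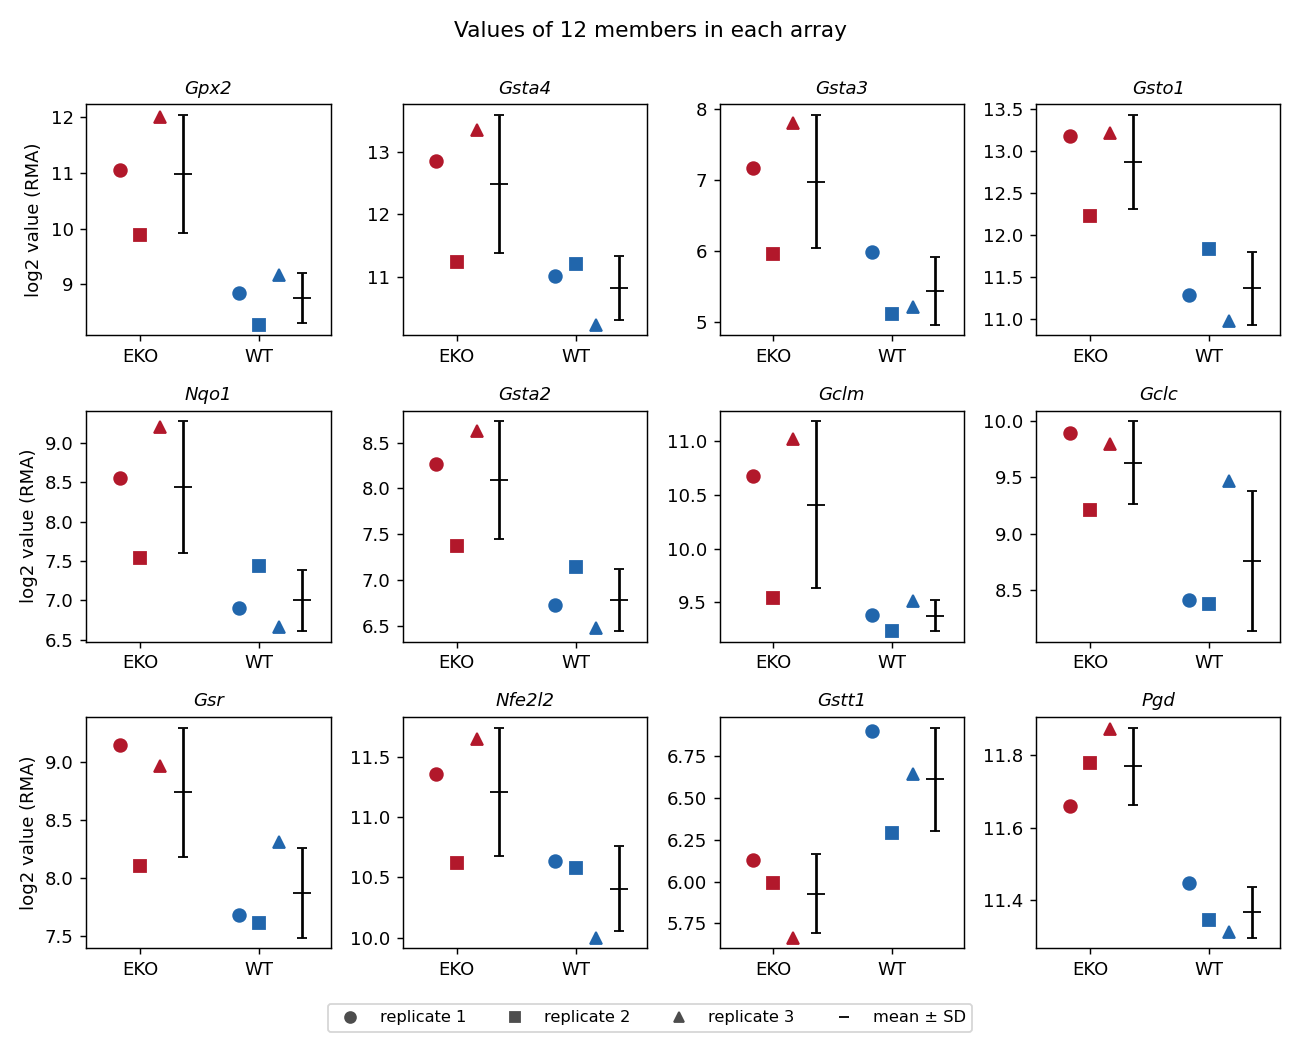
Log2 values of 12 genes in each array, EKO left and WT right in each panel, with symbols for replicates 1 to 3 and a bar for the mean ± SD (n = 3). EKO replicate 2, the square, is the lowest EKO value in the first 10 panels, but not for Gstt1 or Pgd.

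Among the 13 cytosolic glutathione transferases, 8 had higher and 5 lower EKO means, and the families differed. The alpha family stood out, with differences of 1.31, 1.54 and 1.65 for Gsta2, Gsta3 and Gsta4. Gsta4, which conjugates hydroxynonenal, a product of oxidised lipids, read 12.85, 11.24 and 13.35 in EKO tumours, against 11.03, 11.22 and 10.24 in WT tumours. EKO replicate 2 was barely above WT replicate 2 and the other EKO tumours were far above, so the SD reached 1.10 among EKO and 0.516 among WT tumours (difference 1.65, 95% interval 0.40 to 2.91, adjusted p = 0.625). Gsta3 read 7.18, 5.95 and 7.80 in EKO and 5.99, 5.12 and 5.21 in WT tumours, with EKO replicate 2 just below WT replicate 1 (difference 1.54, interval 0.45 to 2.63). Gsta2 read 8.27, 7.37 and 8.62 in EKO and 6.72, 7.14 and 6.47 in WT tumours, without overlap (difference 1.31, interval 0.55 to 2.07). Another probe set shared by Gsta1 and Gsta2 was not used, and signals of these similar genes may not be separable on the array.

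The other families were mixed. Gsto1, of the omega family, which acts as a thiol transferase, read 13.18, 12.23 and 13.21 in EKO tumours, against 11.29, 11.84 and 10.98 in WT tumours. The groups did not overlap, the difference was 1.50 (95% interval 0.76 to 2.25), and its adjusted p of 0.546 in limma was the smallest of all members. The suffix of that probe set marks possible matches to several transcripts, and the gene's other probe set, without that mark, gave 1.81, also without overlap. Its relative Gsto2 had values below the lower quartile of every array, where RMA narrows differences, and a difference of 0.31. Gstp1, of the pi family, had a difference of 0.37 (interval 0.03 to 0.70), at 11.88, 11.55 and 11.96 in EKO and 11.43, 11.26 and 11.61 in WT tumours. EKO replicate 2 lay below WT replicate 3, so these groups overlapped.

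The 5 mu family genes Gstm1 to Gstm5 had differences from -0.29 for Gstm5 to 0.41 for Gstm1, and all overlapped. All their intervals included 0, and the widest, that of Gstm1, ran from -0.16 to 0.98. The sequences of these genes are similar, and the chosen probe sets of Gstm1 and Gstm3 carry a suffix for possible shared matches. Gstt1 and Gstt2, of the theta family, were lower in every EKO tumour. Gstt1 read 6.13, 5.99 and 5.66 in EKO tumours, against 6.90, 6.29 and 6.64 in WT tumours (difference -0.68, interval -1.12 to -0.25, adjusted p = 0.621). Gstt2 read 4.88, 4.81 and 5.04 in EKO and 5.18, 5.20 and 5.24 in WT tumours (difference -0.30, interval -0.51 to -0.09), all of them below the medians of their arrays. Gstt3, a theta gene outside the 48, overlapped, at 5.15, 5.15 and 4.84 in EKO and 4.94, 5.07 and 5.46 in WT tumours (difference -0.11, interval -0.49 to 0.26). The microsomal transferases, membrane enzymes that also reduce lipid peroxides, had a median difference of -0.13, with Mgst2 at 0.45, Mgst3 at -0.13 and Mgst1 at -0.27, and all overlapped. Without WT replicate 3 that median was 0.060.

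The thioredoxin branch, which reduces protein disulphides and peroxiredoxins in parallel to glutathione, showed smaller differences. Srxn1, sulfiredoxin, which repairs over-oxidised peroxiredoxins, read 8.57, 8.28 and 8.73 in EKO and 8.02, 8.16 and 8.10 in WT tumours. The groups did not overlap and the difference was 0.43 (95% interval 0.13 to 0.73, adjusted p = 0.621). The median of the branch was 0.15 over 3 genes, 0.055 without EKO replicate 3 and 0.31 without WT replicate 3. The chosen Srxn1 probe set too may match several transcripts, and the brightest of 3 others gave 0.34 with overlap. Thioredoxin itself, Txn1, had a difference of 0.15 (interval -0.23 to 0.53) and its reductase Txnrd1 one of 0.08 (interval -0.36 to 0.53). Both overlapped, and these intervals leave room for a difference in either direction.

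Of the 4 measured genes listed under NADPH supply, 2, Tkt and Pgd, separated the groups, with small but even differences. Among all genes, 5.78% had every EKO value above every WT value. Tkt, transketolase of the pentose phosphate pathway, read 13.18, 13.15 and 13.16 in EKO tumours, against 12.92, 12.86 and 12.89 in WT tumours. The 3 values of each genotype lay within 0.1 of each other, so a difference of only 0.27 (interval 0.10 to 0.45, adjusted p = 0.621) had the groups apart. Pgd, phosphogluconate dehydrogenase of the same pathway, read 11.66, 11.78 and 11.87 in EKO and 11.45, 11.34 and 11.31 in WT tumours. Its EKO tumours were all higher, by 0.40 on average (interval 0.18 to 0.62, adjusted p = 0.576), and EKO replicate 2 was not the lowest of them. The chosen probe sets of both genes may match several transcripts, and without such probe sets the difference was 0.21 with overlap for Pgd and 0.23 without overlap for Tkt. The dimmest probe set of Tkt, with a mean of 5.19, gave 0.10 with overlap. Taldo1, transaldolase, had a difference of 0.15, and Me1, malic enzyme, one of -0.21, both with overlap. A dimmer probe set of Me1 had 9.22, 9.84 and 9.71 in EKO tumours, all below 10.22, 9.94 and 10.06 in WT tumours.

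Among the enzymes of quinones, carbonyls, epoxides and sugar acids, Nqo1 stood apart from the rest. Nqo1, a quinone reductase often used as a readout of NRF2, read 8.56, 7.54 and 9.21 in EKO tumours, against 6.90, 7.43 and 6.66 in WT tumours. EKO replicate 2 and WT replicate 2 nearly met, and the difference was 1.44 (95% interval 0.47 to 2.40, adjusted p = 0.621), a 2.71-fold ratio of the geometric means. The other 6 lay between -0.24 and 0.27 and all overlapped, namely the carbonyl reductases Cbr1 (-0.24) and Cbr3 (0.14), the epoxide hydrolase Ephx1 (0.11), the aldehyde dehydrogenase Aldh3a1 (0.17), the aldo-keto reductase Akr1b8 (0.27) and Ugdh (-0.01), which makes glucuronic acid for conjugation. The Akr1b8 difference was 0.075 without EKO replicate 3, 0.0197 without WT replicate 3 and 0.51 without EKO replicate 2. For Ugdh the interval was -0.20 to 0.18, the narrowest of these 6, and for Akr1b8 -0.39 to 0.93, the widest. A list median of 0.14 therefore hides 1 gene with a large difference and 6 with smaller ones. That median was -0.0027 without EKO replicate 3 and 0.020 without WT replicate 3.

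Genes of haem and iron and of export did not separate the groups. Hmox1, haem oxygenase, read 7.86, 7.70 and 8.91 in EKO and 7.56, 7.50 and 7.99 in WT tumours. Only EKO replicate 3 exceeded the WT range, and the difference was 0.47 (interval -0.28 to 1.22), or 0.0933 without EKO replicate 3. Fth1, the heavy chain of the iron store ferritin, had a difference of -0.15 (interval -0.69 to 0.39). The conjugate pumps Abcc1 and Abcc4 had differences of 0.05 (interval -0.22 to 0.31) and -0.02 (interval -0.33 to 0.30). A dimmer probe set of Abcc1, which may match several transcripts, was lower in every EKO tumour, at 6.06, 6.58 and 6.65 against 6.68, 6.77 and 6.83 in WT tumours, so this gene has no settled direction either.

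The large differences were carried mainly by EKO replicates 1 and 3. EKO replicate 2 was the lowest EKO value for 27 of 45 genes, 60.0%, where this held for 35.1% of all genes, and EKO replicate 3 was the highest for 28, 62.2% beside 34.3%. For the 10 members with a difference of at least 0.8, EKO replicate 2 was the lowest in 10 of 10, and for 4 of them, Gclc, Gsr, Gsta3 and Nfe2l2, it lay below the highest WT value. Among all 186 genes with such a difference, EKO replicate 2 was the lowest EKO value for 106, 57.0%. Averaged over the 45 genes as a deviation from the 6-array mean, the EKO replicates 1, 2 and 3 stood at 0.198, -0.0655 and 0.406, against -0.129, -0.213 and -0.197 for the WT replicates. EKO replicate 2 was thus nearest to WT, yet above all 3 WT arrays.

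Spread within a genotype also differed, with a median SD over the members of 0.286 in EKO and 0.215 in WT tumours and the larger SD in EKO for 32 of 45 genes, 71.1% beside 52.8% of all genes. By class, synthesis genes stood at 0.522, -0.143 and 0.689 in EKO replicates 1, 2 and 3, against -0.422, -0.511 and -0.135 in the WT replicates, so EKO replicate 2 was just below WT replicate 3. Cytosolic transferases stood at 0.316, -0.117 and 0.506 in EKO, against -0.187, -0.249 and -0.268 in WT tumours, without overlap, and their median difference was 0.17 without EKO replicate 3. Genes listed under NADPH supply differed in order, with EKO replicate 2 the highest, at 0.158. The count of members higher at an unadjusted p under 0.05, 15 with all arrays, was 8 without EKO replicate 1, beside 2.16% of all genes, and 8 without EKO replicate 3, beside 3.06%. The median difference of all members was 0.13 without EKO replicate 3. Without EKO replicate 2 the EKO values lay wholly above the WT values for 21 members, beside 12.7% of all genes, and wholly below for 7, beside 12.2%. Without WT replicate 3 these counts were 17, beside 13% of all genes, and 5, beside 13.8%.

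**Figure D3:**
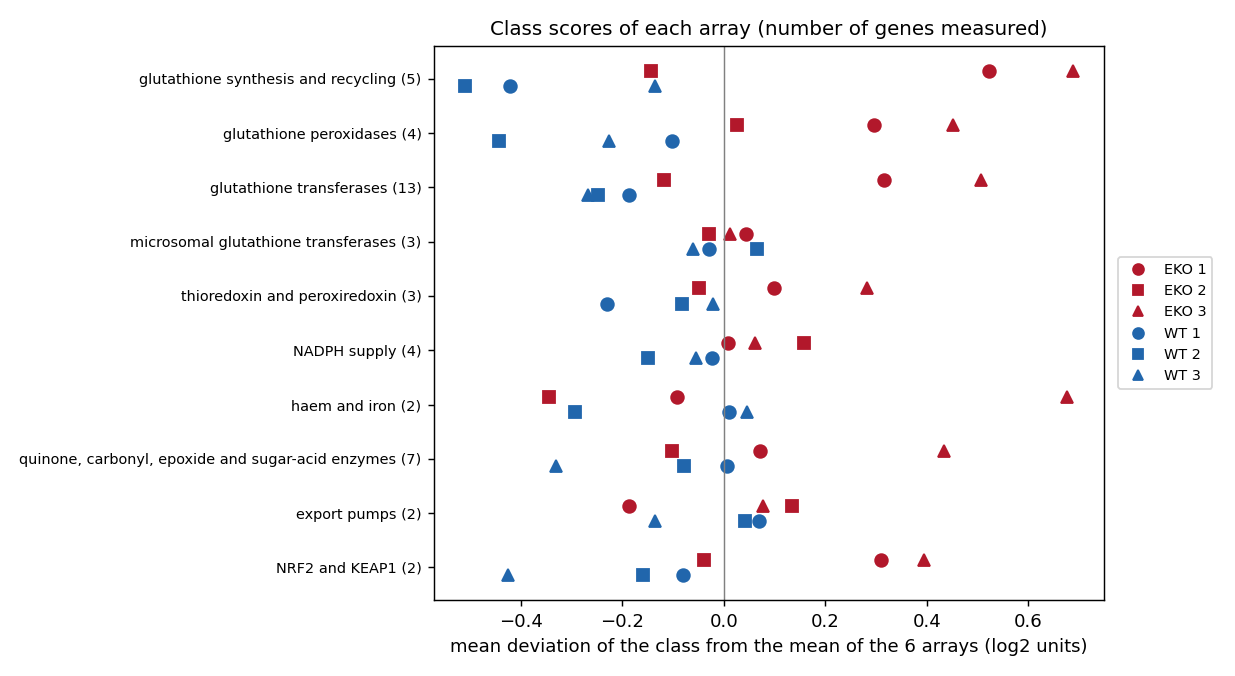
Score of each class in each array, the mean over its measured genes of the deviation from the mean of the 6 arrays in log2 units, with EKO arrays above WT arrays in each row. The EKO arrays lie right of all WT arrays for peroxidases, cytosolic transferases, NADPH supply and the regulators, and EKO replicate 2 lies at -0.143 just left of WT replicate 3 for synthesis genes. The scores are means over unlike genes: the peroxidases include Gpx2 at 2.22 and Gpx1 and Gpx4 with lower EKO means. The regulators Nfe2l2 and Keap1 each overlapped.

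Other genes of redox metabolism divided about evenly between the directions. Of 83 further genes listed by function, 73 were measured, 36 had higher and 37 lower EKO means, and the median difference was -0.02. None passed over all genes (smallest limma adjusted p = 0.549). At an unadjusted limma p under 0.05, 6 were higher and 4 lower, beside 3.44% of all genes higher and 3.7% lower. Every EKO value lay above every WT value for 5, beside 5.78% of all genes, and below for 4, beside 6.19%. The 6 with the smallest p were Ephx2, Slc48a1, Selenow, Abcg2, Cat and Aldh1a1. Ephx2, the soluble epoxide hydrolase, which hydrolyses fatty acid epoxides, read 6.23, 6.46 and 5.87 in EKO tumours, against 7.42, 6.99 and 6.86 in WT tumours, without overlap (difference -0.91, 95% interval -1.37 to -0.44). Abcg2, an efflux pump, read 9.10, 9.13 and 8.96 in EKO and 10.02, 9.75 and 9.25 in WT tumours, again without overlap (difference -0.61). Aldh1a1, a retinaldehyde dehydrogenase, overlapped, with EKO values of 5.98, 6.11 and 5.60 and WT values of 7.31, 6.07 and 7.45 (difference -1.04). Catalase, Cat, which breaks down hydrogen peroxide, was higher in every EKO tumour by 0.27, with 10.28, 10.43 and 10.38 in EKO and 10.14, 10.06 and 10.09 in WT tumours. Slc48a1, a haem transporter, and Selenow, a small selenoprotein, were also higher in every EKO tumour, with differences of 0.46 and 0.43.

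Further probe sets gave a check within the arrays. For the 22 members with several probe sets there were 30 further ones, of which 24 had the sign of the chosen probe set and 6 the opposite one. Both probe sets gave large differences for Gclc (0.87 and 0.85) and Gsto1 (1.50 and 1.81). For Gsta3 the dimmer probe set gave 0.56, at values mostly below the lower quartile. Probe sets of a gene share their RNA and arrays and are not replicates.

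**Figure D4:**
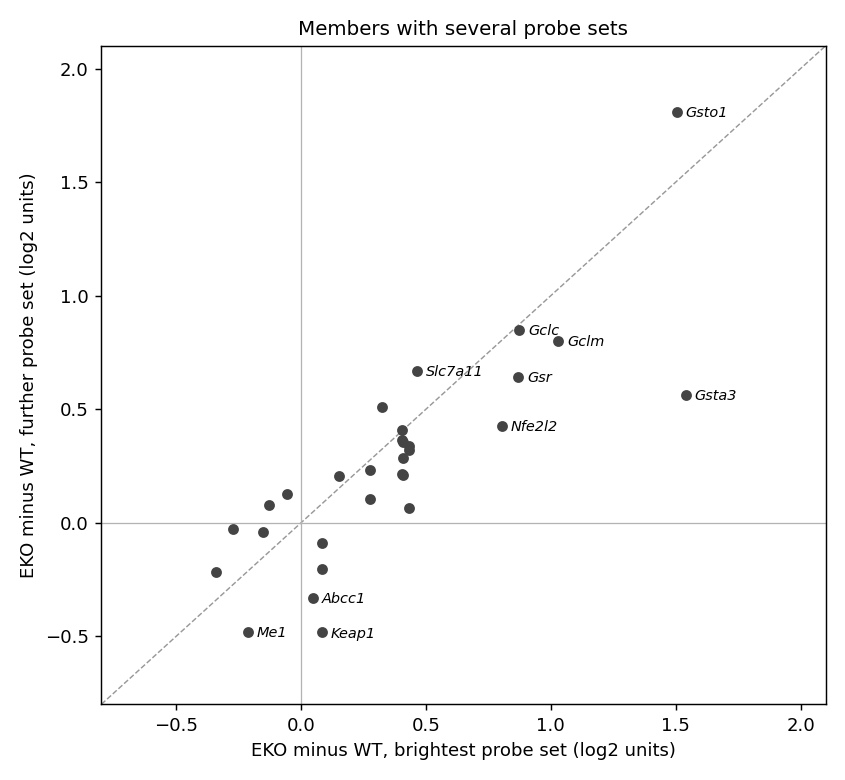
Difference EKO minus WT by the brightest probe set (horizontal axis) and by each further probe set (vertical axis) of 22 genes, in log2 units, with the line of equality dashed. The 6 points in the upper left and lower right parts have opposite signs, and the lowest of these is Keap1 at -0.48.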

How the data were processed

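The samples were total RNA of cells from 3 EKO and 3 WT mice, turned into biotin cRNA for Affymetrix arrays, per the labels. The labels' protocol and the design text name different RNA kits. Groups and replicate numbers came from the sample titles. The authors deposited log2 values, for which the submitters' processing notes name RMA and Partek 6.6. RMA subtracts background, equalises array distributions and combines the probes of each set, which narrows differences near the floor. The deposited values ran from 2.23 to 14.97 with no detection calls, and no filter on low values was set. No batch could be tested, since scan dates were not known. Precision is limited by the number of arrays.

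Of 45101 probe sets, 64 controls were left out, and 34945 had 1 gene symbol, 932 several and 9160 none. Platform annotation was matched to RefSeq genes by Entrez identifier for 34741 probe sets, which altered 0 symbols. Differences were fitted with lmFit and eBayes of limma 3.58.1 (R 4.3.3), with two-sided p-values adjusted by Benjamini-Hochberg over all 18193 genes, and 0.05 was the threshold. The fit was tested on simulated data, where recovery was required only for shifts larger than the difference of any member but Gpx2. Values in every array are given for members with a difference of at least 0.8 in size, groups that do not overlap or an unadjusted p under 0.05, and for Nfe2l2, Keap1, Gclc, Gclm and Slc7a11. Among other redox genes the 6 with the smallest p are named. Array values of Hmox1, of Gstt3 and of further probe sets were chosen after they were seen. The members, classes and lists were chosen with earlier results of these data known. Alternatives were a replicate block, the upper 50% of means, repeated quantile normalization, centred medians, robust variances with a trend, weighted arrays, averaged probe sets, no probe sets with the suffix _x_at or _s_at, each array left out, a threshold of 0.1 and a shorter motif.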

Additional observations from a re-analysis of the deposited data

How the results depend on the processing

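The replicate numbers gave no sign of a pairing: deviations from the group means correlated across genes at -0.0741, -0.0887 and -0.34 for replicates 1, 2 and 3. Unlike replicate numbers gave correlations from -0.19 to 0.263. With 3 arrays per group these values cannot decide whether the samples were paired. With a replicate block 1 gene and 0 members passed, and 19 members were higher and 2 lower at an unadjusted p under 0.05, beside 2.84% and 3.35% of all genes. Genes past the threshold ranged from 1 to 42 and members from 0 to 1 with 1 array left out, 42 and 1 without EKO replicate 2, and 2 genes without WT replicate 2. At an unadjusted p, members higher ranged from 8 to 17 (all genes 2.16 to 5.02%) and lower from 2 to 4 (2.13 to 4.88%). Members wholly above ranged from 11 to 21 (all genes 9.41 to 13%) and wholly below from 2 to 7 (9.06 to 13.8%), where fewer values must separate. The genes in the upper 50% of means held 38 members, without Gstt1 and Gstt2. At an unadjusted p under 0.05, 13 of these were higher and 0 lower, beside 4.33% of all such genes in each direction. Wholly below were 0 members, beside 6.82% of all such genes, and the median of cytosolic transferases was 0.86 over 6 genes. The microsomal transferase median ranged from -0.209 to 0.0596 with 1 array left out, and was -0.0655 with weighted arrays and -0.0245 with averaged probe sets. The thioredoxin median ranged from 0.0554 to 0.308, and the median of Nfe2l2 and Keap1 was 0.21 with averaged probe sets. With the shorter motif TGANNNNGC, 47.1% of member windows and 41.3% of all windows matched. These settings vary the processing only, and the cause of the differences between EKO and WT tumours was not tested.

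Of 668 values of single members under 15 alternatives, 641 kept direction and side of the threshold, 1 newly passed (Gclm) and 26 changed sign, all of members with differences of at most 0.17 in size. These were 0.00799 for Gstm2 with weighted arrays; with averaged probe sets 0.0331 for Gstm3, -0.0711 for Txnrd1, -0.14 for Abcc1 and -0.20 for Keap1; and 0.12 for Gstm3 without probe sets that may match several transcripts. With 1 array left out the ranges were -0.12 to 0.0836 for Gstm2, -0.28 to 0.0735 for Gstm3, -0.31 to 0.0596 for Mgst3, -0.046 to 0.31 for Txnrd1, -0.37 to 0.0429 for Fth1, -0.046 to 0.29 for Cbr3, -0.0392 to 0.21 for Ephx1, -0.0087 to 0.37 for Aldh3a1, -0.0485 to 0.0187 for Ugdh, -0.0125 to 0.15 for Abcc1 and -0.13 to 0.0716 for Abcc4.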
